A study of Mus musculus with 16 samples.

Results

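A group of 8 genes that earlier work named as targets of the transcription factor FOXP2 were followed in the mouse striatum: Cntnap2, Srpx2, Plaur, Mef2c, Disc1, Vldlr, Met and Rora. They were listed by name, with no threshold on their values, and all 8 were among the 24421 genes in the count tables. RNA of the striatum was sequenced from 16 mice harvested at 13 months of age, 4 in each of 4 groups. BACHD mice, a Huntington disease model in which a bacterial artificial chromosome supplies mutant human huntingtin, had received a Foxp2 virus (BACHD+Foxp2) or a control virus (BACHD+Con). Mice of the control genotype had received the Foxp2 virus (Con+Foxp2) or the control virus (Con+Con). Every animal thus carried an injected virus, and there was no group without injection. The sources used here do not state the type of virus, its promoter, the species of its Foxp2 sequence or the time since injection.

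FOXP2 is a forkhead transcription factor best known from an inherited speech and language disorder in people. In the striatum it is made by projection neurons, and it acts largely as a repressor, in dimers with itself or with FOXP1 or FOXP4. The 8 genes act at several steps of circuit building. Cntnap2 encodes Caspr2, an adhesion protein that gathers potassium channels on axons. Srpx2 is a secreted synapse-promoting protein, and Plaur is the urokinase receptor that binds it. Mef2c is a transcription factor that limits synapse number, and Disc1 is a scaffold protein of neuronal migration and signalling. Vldlr is a receptor for reelin, Met is the receptor tyrosine kinase for hepatocyte growth factor, and Rora is a nuclear receptor of the circadian clock and of cerebellar and thalamic neurons. Earlier work reported CNTNAP2, SRPX2, PLAUR, DISC1 and MET in human cells or tissue, and Mef2c in mouse striatum, as genes whose expression FOXP2 lowers. For Vldlr and Rora no earlier direction is given here, so theirs are not compared with one.

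Because FOXP2 acts on DNA, the 250 bases upstream of the start of 3 members are shown, from RefSeq on GRCm38.p6, all on the plus strand. Plaur and Srpx2 are shown because their windows hold a searched motif, and Vldlr because it had the lowest p of the members under the Foxp2 virus. The window of an inner start of Mef2c also holds a searched motif and is not shown. Capitals mark motif matches, here both read on the minus strand: GCAAACA is TGTTTGC, and AATTTG is CAAATT. The Plaur window is chr7:24462233-24462482, the Srpx2 window chrX:133908175-133908424 and the Vldlr window chr19:27216234-27216483.
Plaur: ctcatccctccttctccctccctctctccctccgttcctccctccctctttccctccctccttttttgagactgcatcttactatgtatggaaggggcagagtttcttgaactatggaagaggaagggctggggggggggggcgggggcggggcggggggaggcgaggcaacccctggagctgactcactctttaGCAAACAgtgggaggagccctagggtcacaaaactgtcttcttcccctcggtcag
Srpx2: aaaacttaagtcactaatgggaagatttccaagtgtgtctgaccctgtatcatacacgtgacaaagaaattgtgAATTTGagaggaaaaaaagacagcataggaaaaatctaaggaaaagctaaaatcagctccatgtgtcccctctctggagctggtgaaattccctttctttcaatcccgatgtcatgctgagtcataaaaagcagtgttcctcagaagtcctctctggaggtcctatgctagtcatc
Vldlr: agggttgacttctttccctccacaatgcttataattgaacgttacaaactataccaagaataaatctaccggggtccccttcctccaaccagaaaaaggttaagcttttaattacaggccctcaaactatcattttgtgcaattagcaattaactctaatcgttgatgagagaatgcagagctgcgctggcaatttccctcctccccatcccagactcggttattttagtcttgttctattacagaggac
The search covered both strands for 8 forkhead spellings of 7 letters, each with TATTT or TGTTT followed by AC, AT, GC or GT, and for CAAATT, a motif reported for FOXP2. No spelling of the first kind contains CAAATT. All 8 members had a window and there were 12 windows in all. A forkhead spelling was found in 1 of the 12, that of Plaur at 55 to 49 bases upstream of the start. CAAATT was found in 2, that of Srpx2 at 176 to 171 bases upstream and that of an inner start of Mef2c at 165 to 160 bases upstream. Of 32841 mouse windows of the same length, 24.9% held a forkhead spelling and 9.80% held CAAATT. The Vldlr window shown held neither.

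The members differed widely in level, from well-covered genes to genes with hardly a read. Scaled to exon length, so that genes can be compared, the median over the 16 libraries was 18.9 CPM per kb for Cntnap2, where CPM is the count scaled to a common total of gene reads. On the same scale the median level was 18.5 for Mef2c, 13.4 for Vldlr and 10.6 for Rora. For Foxp2 itself the median, 44.0 CPM per kb or 719 CPM, mixes delivered and native transcript and describes no single library. Control-virus libraries held at most 152 CPM of Foxp2 and Foxp2-virus libraries at least 1286 CPM. The median is thus no measure of the native level. The other members were far lower, at 0.422 for Met, 0.238 for Srpx2, 0.132 for Disc1 and 0.123 for Plaur. In GENCODE M21 on GRCm38 all 8 are protein-coding genes on the plus strand, and no other counted gene overlaps one of them. The largest, Cntnap2, spans chr6:45059357-47304213, and the smallest, Plaur, spans chr7:24462484-24475968. Met (chr6:17463800-17573980) and Foxp2 (chr6:14901349-15441977) lie on the same chromosome as Cntnap2. The others are Mef2c (chr13:83504034-83667080), Rora (chr9:68653786-69388246), Vldlr (chr19:27216484-27254231), Disc1 (chr8:125054195-125261858) and Srpx2 (chrX:133908426-133932446).

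Libraries held 2660395 to 3669748 reads in genes, so 1 read was worth 0.272 to 0.384 CPM. At this depth 5 members had enough reads to be tested with the other genes, and Srpx2, Plaur and Disc1 did not. Markers of striatal projection neurons (12 genes, among them Drd1, Drd2 and Ppp1r1b) summed to 3254 to 6764 CPM with none at 0 in any library, so the labelled tissue carried its defining transcripts. Markers of cortical excitatory neurons (11 genes) summed to 129 to 1648 CPM, a 12.8-fold range, and those of thalamic neurons (6 genes) to 64.3 to 402 CPM. Neurod1, Emx1 and Slc30a3 of the cortical list, and Gbx2 of the thalamic list, were at 0 reads in some libraries. In bulk tissue a cell type that is rarer and one with less RNA per cell cannot be told apart. The labels name 4 mice per group, so p-values measure the spread between these mice.

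The targeted gene followed the labels. Foxp2 was at 1723, 1286, 1426 and 1922 CPM in BACHD+Foxp2 mice and at 3805, 4371, 4333 and 3486 CPM in Con+Foxp2 mice. It was at 87.0, 129, 152 and 105 CPM in BACHD+Con mice and at 98.2, 149, 92.9 and 129.8 CPM in Con+Con mice. Both virus groups lay far above both control-virus groups, and the BACHD virus group lay wholly below the control-genotype one. Foxp2 rose by 3.75 ± 0.18 on the log2 scale in BACHD mice and by 5.09 ± 0.19 in control mice (estimate ± SE, 4 against 4 mice; edgeR adjusted p = 2.39e-12 and 1.04e-14). Under the Foxp2 virus it was lower in BACHD than in control mice by a log2 change of -1.33 (edgeR adjusted p = 9.64e-05). The difference between the virus effects of the genotypes was -1.34 on the log2 scale and its call turned on the processing. It missed the threshold in the edgeR interaction test (adjusted p = 0.0770) and passed it with DESeq2 (adjusted p = 9.91e-05), with no filter on low counts (edgeR adjusted p = 7.73e-05) and with cortical markers as a covariate (edgeR adjusted p = 0.000111). It also passed without Con+Con mouse 2, BACHD+Con mouse 1 or BACHD+Foxp2 mouse 4 (edgeR adjusted p = 0.0189, 0.0169 and 0.0491). The members were thus read under a delivered level that was not the same in the genotypes.

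Against that rise in Foxp2, 0 of the 5 tested members passed an adjusted p under 0.05 in any comparison. With the Foxp2 virus in BACHD mice, 33 of 13563 genes did so (0.243%), and in control mice 31 (0.229%). For the virus effect averaged over both genotypes 143 genes were called (1.05%), 57 of them higher and 86 lower. Between BACHD and control genotype 8 genes were called under the Foxp2 virus (0.0590%) and 2 under the control virus (0.0147%), and the interaction gave 0 called genes (0%), with 516 at an unadjusted p under 0.05. A set of 5 genes at such shares would mostly hold no called gene, so the count of 0 does not set the members apart. At an unadjusted p under 0.05, 1 of the 5 members stood in each of the 3 virus comparisons, in each case Vldlr. Over all tested genes 1048 (7.73%) did so in BACHD mice, 955 (7.04%) in control mice and 1468 (10.8%) for the averaged effect. The median log2 difference of the 5 under the averaged virus effect was -0.04, beside -0.0027 over all tested genes, with 2 members above 0 and 3 below. Among the genes called in the averaged effect were 4 of 8 astrocyte markers (Gfap, Aqp4, Kcnj10 and Slc1a3), which rose, and 1 of 9 microglial markers (Ctss), which rose. In that effect 6 astrocyte markers were above 0 and 2 below, and all 9 microglial markers were above 0. Over the 16 libraries the 5 tested members followed the summed astrocyte or microglial markers with Pearson r from -0.391 to 0.364 (permutation p adjusted over 55 relations, 0.464 to 0.985) and Spearman rho from -0.412 to 0.288 (adjusted 0.418 to 0.794). Without the 2 farthest libraries r ran from -0.467 to 0.222. Within groups r ran from -0.709 for Mef2c to 0.622 for Rora, both with astrocyte markers, and was 0.572 for Vldlr with astrocyte markers.

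**Figure D1:**
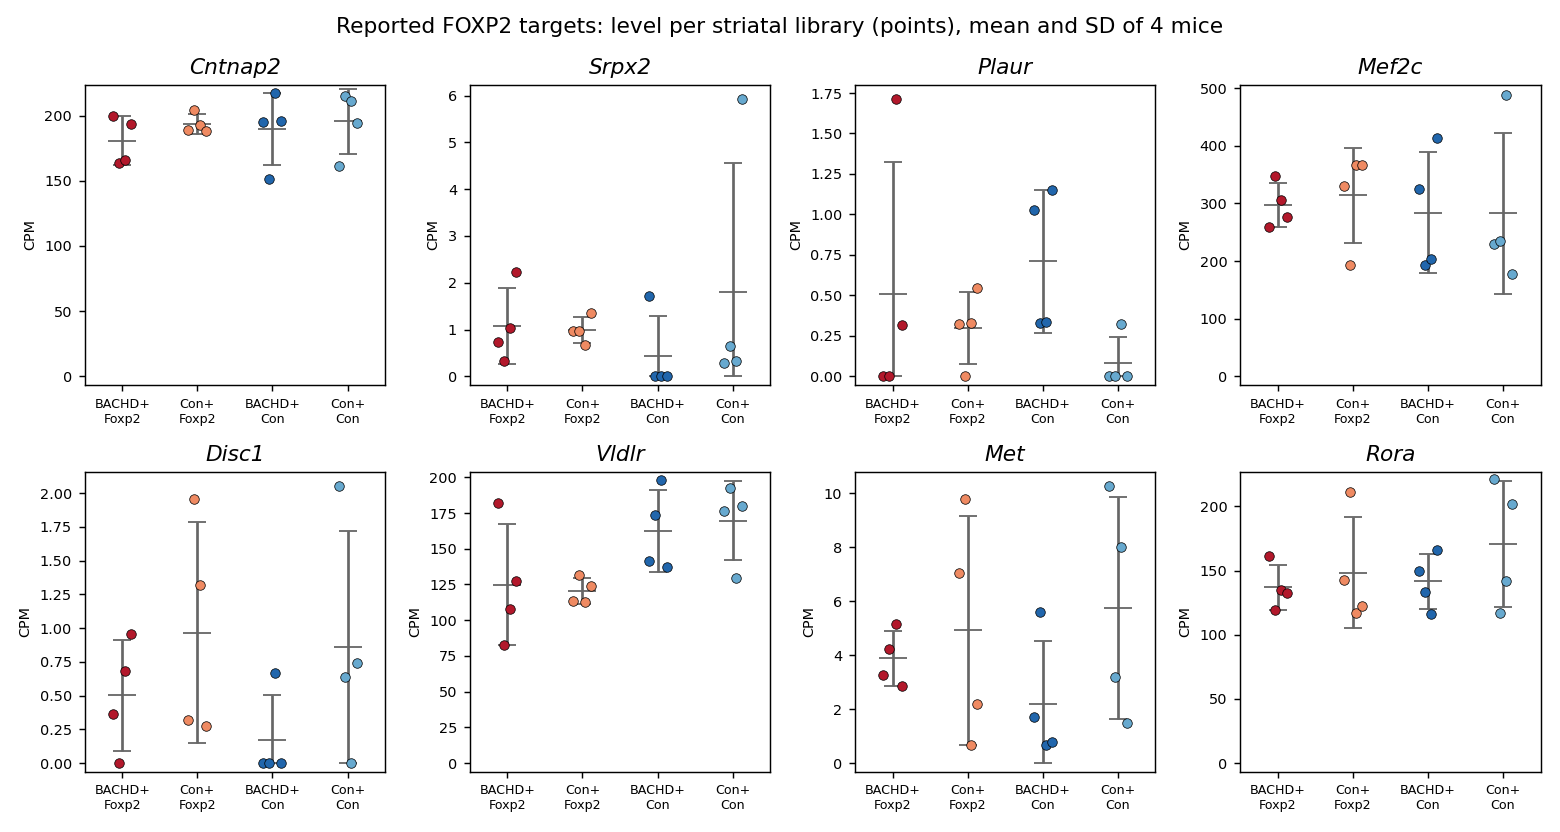
Level of each of the 8 genes in CPM (vertical axis, from 0, a scale per panel) in every library, by group. Points are single mice, the short bar is the mean of 4 and the whisker its SD, stopped at 0; the groups overlap for Cntnap2, Mef2c and Rora, while Vldlr is mostly lower with the Foxp2 virus and Srpx2, Plaur and Disc1 rest on a few reads.

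Vldlr, one of the reelin receptors that place and shape neurons, had the lowest p of the members with the virus. It was at 182, 82.5, 108 and 128 CPM in BACHD+Foxp2 mice and at 141, 173, 198 and 138 CPM in BACHD+Con mice. In BACHD+Foxp2 mouse 1 it was as high as in the control-virus group, and the other 3 mice lay below all 4 BACHD+Con mice. In Con+Foxp2 mice it was at 113, 132, 113 and 124 CPM, against 176, 192, 129 and 180.2 CPM in Con+Con mice. Here 3 of the 4 Con+Foxp2 mice lay below every Con+Con mouse, and Con+Con mouse 3 fell within the range of the virus group. The groups overlapped by 1 library in each genotype.

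The log2 difference in Vldlr was -0.38 ± 0.18 in BACHD mice (estimate ± SE; 95% interval -0.76 to -0.0065, edgeR adjusted p = 0.634). In control mice it was -0.49 ± 0.18 (95% interval -0.87 to -0.12, edgeR adjusted p = 0.498). Averaged over both genotypes it was -0.44 ± 0.13 (95% interval -0.70 to -0.17, edgeR adjusted p = 0.125), rank 260 of 13563 genes by p. On mean CPM, exact two-sided permutation tests gave p = 0.171 in BACHD mice and p = 0.0571 in control mice, where 4 against 4 can give no less than 0.0286. In the authors' deposited table the log2 fold change was -0.30 in BACHD mice (adjusted p = 0.874) and -0.44 in control mice (adjusted p = 0.0699), in both cases above 0.05. Foxp2 too had smaller changes there than in edgeR (3.21 beside 3.75 in BACHD mice, 4.51 beside 5.09 in control mice). Sizes from the 2 sources are therefore not compared. The call on the averaged effect turned on the processing: the edgeR adjusted p was 0.0291 with no filter on low counts, 0.0481 without Con+Con mouse 3 and 0.0150 without BACHD+Foxp2 mouse 1. The interaction was 0.11 on the log2 scale (95% interval -0.42 to 0.64), so a difference of Vldlr between the genotypes' virus effects was not detected.

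**Figure D2:**
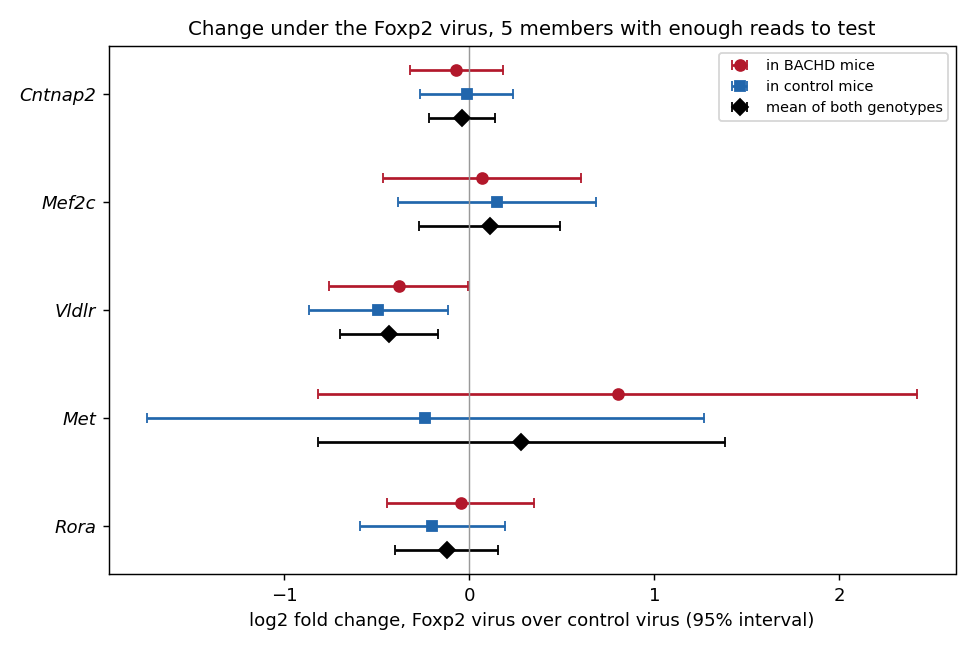
Log2 fold change of the Foxp2 virus over the control virus (horizontal axis) with its 95% interval for the 5 testable genes, in BACHD mice (circles), control mice (squares) and averaged (diamonds). The intervals of Vldlr lie below 0 and those of Cntnap2 are the narrowest around 0, while those of Met span several log2 units.

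Other transcripts of the same libraries moved with Vldlr. Over the 16 libraries its log2 level followed the summed markers of cholinergic interneurons, the acetylcholine neurons of the striatum (Pearson r = 0.874, permutation p = 1e-05, the smallest 100000 resamples can give; Spearman rho = 0.912, permutation p = 3e-05). Without the 2 libraries farthest from the median marker sum r was 0.915. Inside groups, with each group's mean removed, r was 0.789, and it was 0.719 within the Foxp2-virus mice and 0.895 within the control-virus mice. The cholinergic list summed to 18.8 to 53.6 CPM in BACHD+Foxp2 mice and to 50.7 to 96.1 CPM in BACHD+Con mice. It summed to 17.2 to 46.3 CPM in Con+Foxp2 mice and to 42.0 to 105 CPM in Con+Con mice (exact permutation p = 0.0571 in each genotype, adjusted p = 0.359 over 44 marker tests). All 6 of its genes had a negative averaged virus effect, and 3 fell (Chat, Slc5a7 and Slc17a8), Chat by a log2 change of -1.44 (edgeR adjusted p = 0.00336). Slc18a3 and Lhx8 of that list were at 0 reads in 1 library each. The part of this list in the Vldlr result was not tested.

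Vldlr ran the other way against cortical neuron markers (Pearson r = -0.765, permutation p = 0.00045; Spearman rho = -0.771, permutation p = 0.00086; r = -0.688 without the 2 farthest libraries and -0.691 within groups). It ran with striatal projection neuron markers (r = 0.693, permutation p = 0.0027; rho = 0.721, permutation p = 0.0026; r = 0.602 without the 2 farthest and 0.605 within groups). Of 55 such relations between the 5 members and 11 marker lists, these 3 had Benjamini-Hochberg adjusted p-values for r of 0.000183 (cholinergic), 0.00619 (cortical) and 0.0247 (projection neurons). The cortical sum averaged 1047 ± 374 CPM in BACHD+Foxp2 and 632 ± 584 CPM in BACHD+Con mice, and 958 ± 410 CPM in Con+Foxp2 and 654 ± 675 CPM in Con+Con mice (SD, n = 4 each). With the mean log2 level of the cortical markers, not their sum, as a covariate the averaged Vldlr effect was -0.27 (edgeR adjusted p = 0.425). Without BACHD+Con mice 2 and 3 and Con+Con mouse 4, the libraries lowest in cortical markers, it was -0.31 (edgeR adjusted p = 0.645). All 3 are control-virus mice above their group's mean in Vldlr (163 CPM in BACHD+Con, 170 CPM in Con+Con). Leaving them out could thus only move the Vldlr effect upward. All 12 projection neuron markers had a negative averaged virus effect, with 0 called and a median log2 difference of -0.38.

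**Figure D3:**
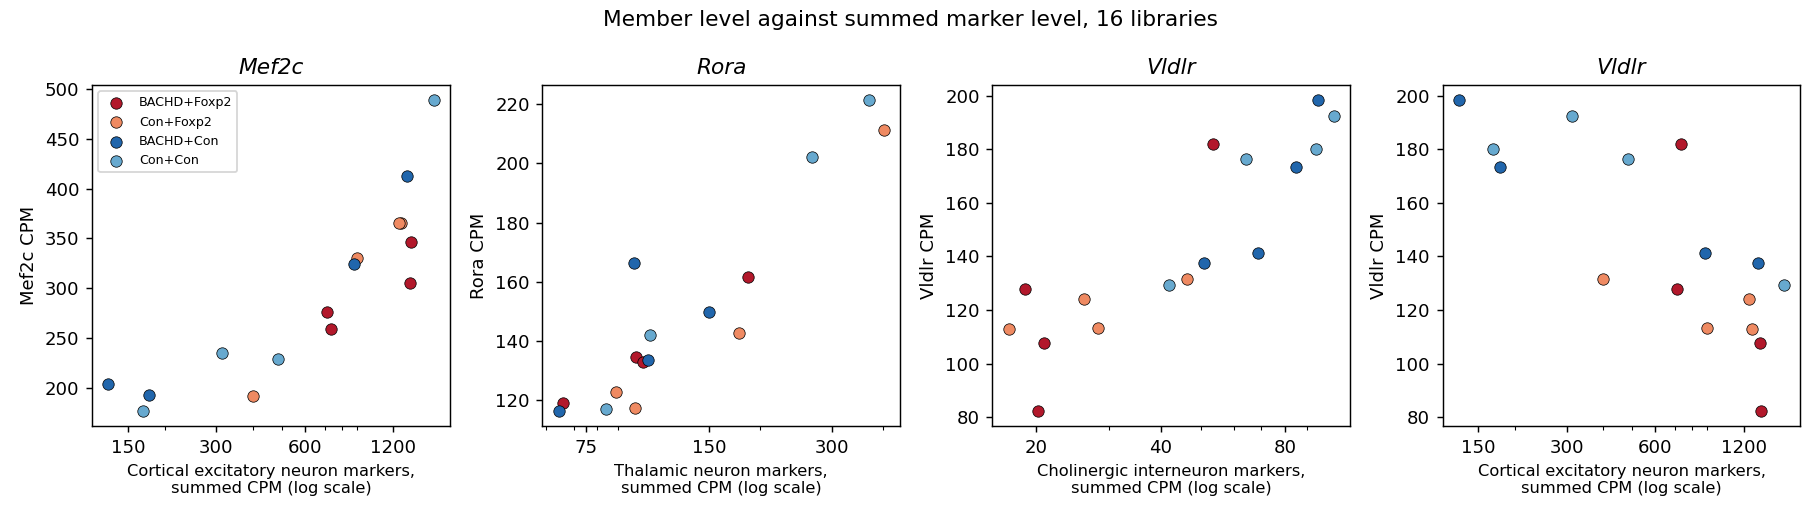
Level in CPM of Mef2c, Rora and Vldlr (vertical axes, not from 0) against the summed CPM of a marker list (horizontal axes, log scale) in the 16 libraries, coloured by group. Mef2c climbs with cortical and Rora with thalamic markers, and Vldlr climbs with cholinergic and declines with cortical markers.

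The other genes of the reelin pathway gave 0 calls among 8 tested in every comparison, with 6 above 0 and 2 below for the averaged virus effect and a median log2 difference of 0.11. Fyn, a kinase that acts on Dab1, had the lowest p of them at 0.26 ± 0.09 (edgeR adjusted p = 0.249). Dab1, the adaptor that Vldlr recruits, was at 0.26 ± 0.12 (edgeR adjusted p = 0.444). Lrp8, the other reelin receptor, averaged 113 ± 21.0 CPM in BACHD+Foxp2 and 98.0 ± 32.9 CPM in BACHD+Con mice, and 127 ± 6.11 CPM in Con+Foxp2 and 101 ± 16.2 CPM in Con+Con mice (SD, n = 4 each). Over the libraries the genes most like Vldlr were Nipbl (r = 0.892) and Cacna2d2 (r = 0.889), among 10370 candidate genes.

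Cntnap2 was the steadiest member, with a coefficient of variation of 10.4% over all 16 libraries. It was at 200.1, 163, 166 and 194 CPM in BACHD+Foxp2 mice and at 195, 151, 218 and 196 CPM in BACHD+Con mice. The corresponding values were 189, 204, 192 and 188 CPM in Con+Foxp2 mice and 161, 215, 211 and 195 CPM in Con+Con mice. All 4 groups overlapped. Its averaged log2 difference with the virus was -0.04 ± 0.09 (95% interval -0.22 to 0.14, edgeR adjusted p = 0.920). On the linear scale the bounds of that interval were 0.858-fold and 1.10-fold, so changes beyond them lay outside it. Between BACHD and control genotype the log2 difference was -0.10 under the Foxp2 virus and -0.04 under the control virus (edgeR adjusted p = 0.998 and 1). The genes most like it were Abcc5 (r = 0.775) and BC030336 (r = 0.773), which is a looser match than for any other tested member.

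Among 11 tested relatives and partners of Caspr2, 0 were called in any comparison, and the averaged virus effect was above 0 for 4 and below 0 for 7. The lowest p-values were those of Cntnap5a, a close relative of Cntnap2, and of Kcna1, a potassium channel subunit that Caspr2 clusters. Cntnap5a was at 24.2 ± 3.97 CPM in Con+Foxp2 and 40.8 ± 7.63 CPM in Con+Con mice (SD, n = 4 each; log2 difference -0.75, edgeR adjusted p = 0.384). Kcna1 was at 306 ± 30.2 CPM in Con+Foxp2 and 381 ± 32.7 CPM in Con+Con mice (log2 difference -0.31, edgeR adjusted p = 0.384).

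Mef2c, the factor that limits excitatory synapse number, varied more between mice of a group than between groups. It was at 259, 347, 306 and 276 CPM in BACHD+Foxp2 mice and at 325, 193, 204 and 413 CPM in BACHD+Con mice. In Con+Foxp2 mice it was at 331, 193, 366 and 366 CPM, and in Con+Con mice at 229.5, 235, 488 and 178 CPM. The highest and the lowest library of the whole series were both Con+Con mice. The log2 difference with the virus was 0.07 ± 0.26 in BACHD mice and 0.15 ± 0.26 in control mice (edgeR adjusted p = 0.984 and 0.960), and 0.11 on average (95% interval -0.27 to 0.49, edgeR adjusted p = 0.896).

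The spread of Mef2c followed the cortical markers (Pearson r = 0.907, permutation p = 1e-05, the smallest possible; Spearman rho = 0.891, permutation p = 3e-05; adjusted p for r 0.000183 over the 55 relations). Without the 2 farthest libraries r was 0.903, and inside groups it was 0.949. Con+Con mouse 3, at 488 CPM of Mef2c, had the highest cortical sum of all (1648 CPM). Mef2c ran the other way against striatal projection neuron markers (Pearson r = -0.748, permutation p = 0.00073, adjusted p 0.00803 over the 55 relations). For that list Spearman rho was -0.756, and r was -0.727 without the 2 farthest libraries and -0.748 within groups. With the mean log2 level of the cortical markers as a covariate the direction of the virus effect turned. It was then -0.30 in BACHD mice, -0.09 in control mice and -0.20 on average (edgeR adjusted p = 0.531, 0.958 and 0.482). Without the 3 libraries lowest in cortical markers it was -0.31 in BACHD mice and -0.16 on average (edgeR adjusted p = 0.907 and 0.894). These 3 are control-virus mice with the lowest Mef2c of their groups (193 and 204 CPM in BACHD+Con, 178 CPM in Con+Con). Leaving them out could thus only move the effect downward. Mef2c is itself a gene of cortical excitatory neurons, and the sources used here do not state how each striatum was dissected. The genes most like Mef2c were Stx1a (r = 0.972), a synaptic vesicle fusion protein, and Kalrn (r = 0.947), a synaptic exchange factor that also stands on the list of Disc1 partners. Of 7 tested genes of the MEF2 family and its deacetylase regulators, 0 were called. Hdac9, a deacetylase that holds MEF2 factors silent, was at 0.29 ± 0.18 with the virus on average (edgeR adjusted p = 0.60), and Mef2d at 0.16 ± 0.12 in BACHD over control mice under the Foxp2 virus (edgeR adjusted p = 0.998).

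Rora was at 161, 119, 135 and 133 CPM in BACHD+Foxp2 mice and at 149.7, 134, 116 and 166 CPM in BACHD+Con mice. In Con+Foxp2 mice it was at 143, 211, 117 and 123 CPM, and in Con+Con mice at 221, 117, 142 and 202 CPM. A trio of libraries stood above 200 CPM (Con+Foxp2 mouse 2 and Con+Con mice 1 and 4), and the other libraries overlapped between groups. The averaged log2 difference with the virus was -0.12 ± 0.14 (95% interval -0.40 to 0.16, edgeR adjusted p = 0.827).

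That trio was also the highest in thalamic markers, at 402, 369 and 267 CPM. Over all 16 libraries Rora followed the thalamic sum (Pearson r = 0.921, permutation p = 1e-05, the smallest possible; Spearman rho = 0.859, permutation p = 6e-05; adjusted p for r 0.000183). Without the 2 farthest libraries r was 0.837, and inside groups it was 0.945. The gene most like Rora was Tcf7l2 (r = 0.895), itself on the thalamic list, followed by Grid2ip (r = 0.867). BACHD over control mice gave a log2 difference in Rora of -0.12 under the Foxp2 virus and -0.27 under the control virus (edgeR adjusted p = 0.998 and 1). Those differences were 0.09 and 0.03 with the mean log2 level of the tested thalamic markers as a covariate. They were 0.10 and 0.12 without the trio, which are all control-genotype mice and the highest in Rora, so that leaving them out could only move the differences upward. Among 9 tested ROR relatives and clock genes 0 were called. Rorb, a relative of Rora made in cortex and thalamus, was at 90.7 ± 24.7 CPM in BACHD+Con and 132 ± 38.8 CPM in Con+Con mice (log2 difference -0.54, edgeR adjusted p = 1).

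Met rested on 208 reads over the series, so its values are coarse. It was at 3.28, 4.24, 5.14 and 2.86 CPM in BACHD+Foxp2 mice and at 1.71, 5.59, 0.669 and 0.768 CPM in BACHD+Con mice. In Con+Foxp2 mice it was at 7.06, 9.78, 0.660 and 2.18 CPM, and in Con+Con mice at 10.3, 3.21, 8.01 and 1.48 CPM. Mice of 1 group differed by more than 5-fold in 3 of the 4 groups, and all groups overlapped. The log2 difference with the virus was 0.80 in BACHD mice (95% interval -0.82 to 2.42) and -0.24 in control mice (95% interval -1.74 to 1.27; edgeR adjusted p = 0.879 and 0.981). A doubling of Met lay within both intervals and was not detectable at this depth and this spread between mice. The pattern most like that of Met was that of Trpc4 (r = 0.909), an ion channel gene, before Usp6nl (r = 0.860). Its ligand Hgf gave a log2 difference of -1.08 ± 0.82 in BACHD over control mice under the Foxp2 virus (edgeR adjusted p = 0.998), and Grb2, an adaptor of the receptor, -0.15 ± 0.15 (edgeR adjusted p = 0.998). Only 4 of 8 genes of this pathway list had enough reads to test, and 0 were called.

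Srpx2, the secreted synapse factor, had 2, 1, 3 and 7 reads in BACHD+Foxp2 mice and 5, 0, 0 and 0 reads in BACHD+Con mice. It had 3, 3, 2 and 5 reads in Con+Foxp2 mice and 1, 2, 1 and 16 reads in Con+Con mice. All 8 Foxp2-virus libraries and 5 of the 8 control-virus libraries held a read, while the sums were nearly equal, at 26 reads with the Foxp2 virus and 25 with the control virus. Con+Con mouse 4 alone held 16 of the 20 reads of its group, at 5.93 CPM, and the highest value elsewhere was 2.22 CPM. The mean difference in control mice was -0.807 CPM with that mouse and 0.572 CPM without it (exact two-sided permutation p = 1 and 0.0571). The mean difference in BACHD mice was 0.649 CPM (exact two-sided permutation p = 0.286).

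Its receptor Plaur had 0, 0, 5 and 1 reads in BACHD+Foxp2 mice and 3, 1, 1 and 3 reads in BACHD+Con mice. It had 1, 0, 1 and 2 reads in Con+Foxp2 mice and 0, 0, 1 and 0 reads in Con+Con mice. With the control virus BACHD mice held 8 reads and control mice 1 read. On CPM the exact two-sided permutation p was 0.0286, the smallest possible, and 1 of 12 such tests on the low members was under 0.05. BACHD+Con mice 2 and 3 were at 0.329 and 0.335 CPM and Con+Con mouse 3 at 0.320 CPM, each from 1 read. The gap between the groups thus rests on library size at 1 read. The share of all genes with such a gap was not counted. In an edgeR fit with no filter on low counts 20069 genes were tested. There the Plaur difference of BACHD+Con over Con+Con mice had a 95% interval of -0.75 to 5.99 on the log2 scale and an adjusted p of 0.999. By virus the sums were 10 reads with the Foxp2 virus and 9 with the control virus. Among 8 tested genes of the urokinase receptor and Srpx2 list 0 were called. Plat, tissue plasminogen activator, was at 0.39 ± 0.18 with the virus on average (edgeR adjusted p = 0.455), and Ctsb, a protease that binds Srpx2, at 0.19 ± 0.07 (edgeR adjusted p = 0.256).

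The Disc1 scaffold gene had 1, 0, 2 and 3 reads in BACHD+Foxp2 mice and 0, 0, 2 and 0 reads in BACHD+Con mice. It had 1, 6, 4 and 1 reads in Con+Foxp2 mice and 7, 2, 0 and 2 reads in Con+Con mice. The sums were 18 reads with the Foxp2 virus and 13 with the control virus, and the groups overlapped. With no filter on low counts the averaged log2 difference had 95% intervals of -1.33 to 2.83 for Disc1, -1.49 to 1.92 for Srpx2 and -1.46 to 2.50 for Plaur. For each of these 3 genes a change of 1 log2 unit up or down lay within the interval and was not detectable at this depth. Falls beyond the lower bounds lay outside the intervals. The proteins that bind Disc1 were far better covered, and 0 of 11 tested were called. Tsnax, the gene beside Disc1, was at 147 ± 12.4 CPM in BACHD+Foxp2 and 109.6 ± 13.7 CPM in Con+Foxp2 mice (SD, n = 4 each; log2 difference 0.42, edgeR adjusted p = 0.797). Ndel1, a partner in nuclear migration, was at -0.27 ± 0.14 with the virus in BACHD mice (edgeR adjusted p = 0.668).

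**Figure D4:**
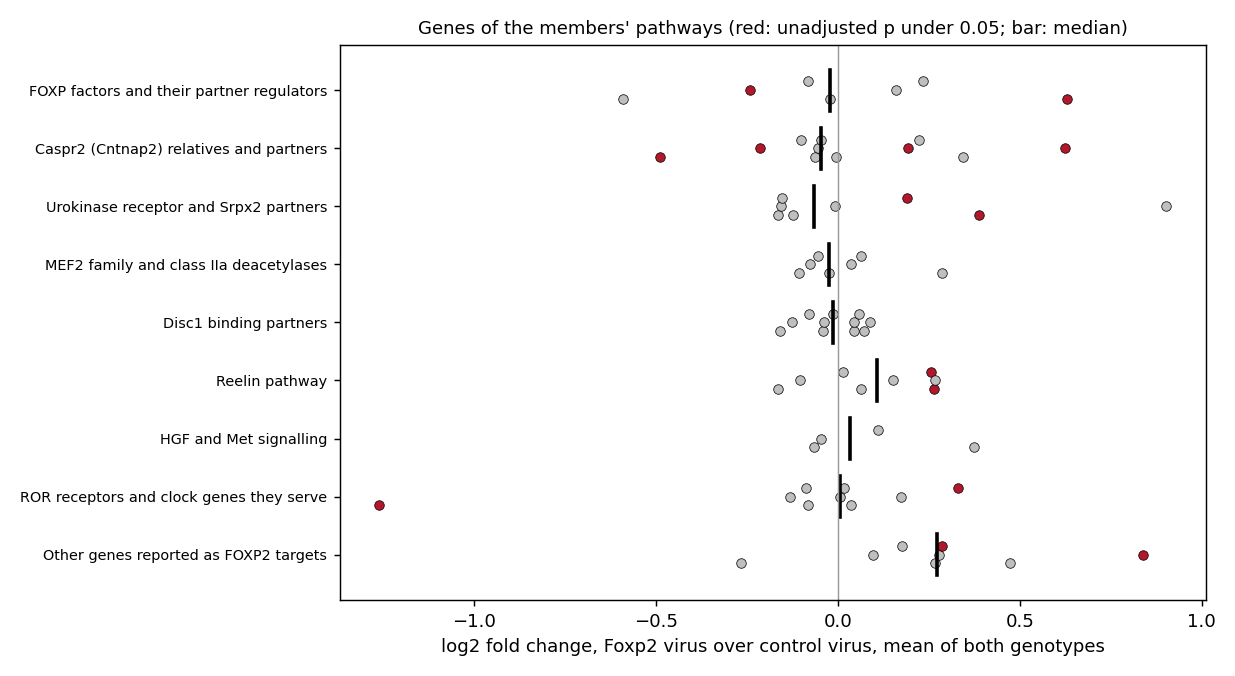
Averaged log2 fold change of the Foxp2 virus over the control virus (horizontal axis) for the tested genes of 9 lists, 1 point per gene. The black bar is the list's median and red marks an unadjusted p under 0.05; the list of other reported FOXP2 targets has 7 of 8 points above 0, and 0 genes on any list passed the adjusted threshold.

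Over all 9 lists of partners and relatives, 82 of 83 genes were in the tables, 73 were tested and 0 were called in any of the 6 comparisons. For the averaged virus effect 14 of the 73 had an unadjusted edgeR p under 0.05. That is a larger share than the 10.8% of all tested genes (1468 of 13563), and the difference in share was not tested. Of the 73 the lowest edgeR adjusted p was 0.230 and the median log2 difference was 0.01. Foxp1, the dimer partner of FOXP2 in striatal neurons, was at 415 ± 64.6 CPM in BACHD+Foxp2 and 508 ± 90.2 CPM in BACHD+Con mice. It was at 411 ± 20.9 CPM in Con+Foxp2 and 470 ± 107 CPM in Con+Con mice (SD, n = 4 each; averaged log2 difference -0.24, edgeR adjusted p = 0.377). Ctbp2, a corepressor, was at -0.72 ± 0.31 in BACHD over control mice under the Foxp2 virus (edgeR adjusted p = 0.998). Among 8 further genes reported as FOXP2 targets 7 were above 0 with the virus and the median log2 difference was 0.27, beside -0.0027 over all tested genes, with 0 called. Sema6d, a semaphorin of axon guidance, was at 0.29 ± 0.12 (edgeR adjusted p = 0.348). Nrn1, a neurite growth protein of excitatory neurons, was at 56.1, 118, 56.9 and 42.9 CPM in BACHD+Foxp2 mice and at 56.9, 11.5, 3.68 and 73.4 CPM in BACHD+Con mice. In Con+Foxp2 mice it was at 67.4, 54.7, 73.0 and 61.7 CPM, against 46.1, 9.62, 77.5 and 18.5 CPM in Con+Con mice (averaged log2 difference 0.84, edgeR adjusted p = 0.451). Its lowest values, below 20 CPM, were in the 3 libraries lowest in cortical markers and in Con+Con mouse 2. In the averaged virus effect 10 of 11 cortical markers were also above 0 and 1 below, with a median log2 difference of 0.61 and 0 called. The part of cortical markers in the values of the 8 further targets was not tested.

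Between the members themselves there was little common movement. Of the 10 pairs of tested members, the strongest relation over the 16 libraries was between Mef2c and Vldlr (r = -0.634, rho = -0.606), which also stood opposite each other against cortical markers. By r the next were Met with Rora (r = 0.370, rho = 0.424), Cntnap2 with Met (r = -0.369) and Mef2c with Rora (r = -0.365). By rho the next was Cntnap2 with Vldlr (rho = 0.515, r = 0.293). These are descriptions, with no test, over libraries that share groups and whose dissection is not stated.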

How the data were processed

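For each of the 16 mice the authors deposited whole-number read counts by gene, not normalized. STAR 2.4.0, HTSeq, DESeq2 and mm10 are listed in the submitters' processing notes, with no role or order. Extraction (RNeasy Lipid Tissue kit) and library chemistry (Clontech SMARTer) are per the labels' protocols. The sources used here do not state a strand setting. Every count file closes with 5 summary lines, which hold 75.3% to 77.5% of its listed reads and stayed out of library sizes and tests. In 3 further deposited tables the authors give their own log2 fold changes and p-values, quoted only where named.

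The deposited counts were tested in edgeR 4.0.16 (R 4.3.3) by quasi-likelihood, with trimmed-mean scaling, filterByExpr and 1 mean per group over all 16 libraries, which left 12 degrees of freedom. P-values are two-sided and adjusted over 13563 genes after Benjamini and Hochberg, and calls are under 0.05. CPM uses the scaled library sizes. Marker relations and likeness used log2 values (prior count 2), and permutation p-values of the relations used 100000 resamples. Alternatives were DESeq2 1.42.0, another scaling, no filter, a replicate block, the 2 groups alone, leaving out mice, and marker covariates. The fit was tested on simulated data. Of 120 pairs of libraries 0 were identical, and all differed beyond counting error.

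The members and lists were chosen with earlier results of these data known. Named partners were those called, or otherwise the 2 of each list with the lowest p. A gene that this rule names is not reported here. The genes most like a member were the 2 with the highest r among genes averaging a log2 CPM of 3 or more, with Gm and Rik names left out.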

Additional observations from a re-analysis of the deposited data

Results flagged for a closer look

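In a group of 4 mice, a value was marked when its gap to the nearest other value was a larger part of the group's range than Dixon's 95% critical value allows. Of 52 sets of 4 looked at, 5 held such a value, and chance alone marks about 1 in 20. Con+Con mouse 4 held Srpx2 at 5.93 CPM, from 16 of its group's 20 reads. BACHD+Con mouse 1 held Srpx2 at 1.71 CPM, from the only 5 reads of its group. For Disc1 it was BACHD+Con mouse 3 at 0.669 CPM, from 2 reads, and for Plaur it was Con+Con mouse 3 at 0.320 CPM, from 1 read. The last 3 stand apart because the other mice of the group had 0 reads. The summed cholinergic markers of BACHD+Foxp2 mouse 1 were at 53.6 CPM, above the other 3 mice of that group, and the same mouse held the group's highest Vldlr, at 182 CPM.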

How the results depend on the processing

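Over all alternatives, 518 member log2 fold changes kept their direction and their side of the threshold, 3 (all Vldlr, averaged virus effect) moved past it, and 57 changed sign without passing it; the cause was not tested. The averaged Vldlr effect kept its sign throughout, from -0.55 to -0.27, with adjusted p from 0.0150 to 0.645. Srpx2, Plaur and Disc1 rest on few reads. Met rests on 208 reads and also varied widely between mice of a group.

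DESeq2 called 79 genes for the virus in control mice, 62 in BACHD mice, 234 on average, 15 for genotype under the Foxp2 virus and 3 for the interaction. The Foxp2 interaction passed the threshold under 6 alternatives. With no filter on low counts the virus comparisons called 75 in control and 53 in BACHD mice, 1 member (Vldlr) was called on average, and the interaction called 3. Fitting the 2 groups alone called 19 in BACHD mice. The Mef2c difference by genotype under the control virus, 0.0032 in the main analysis, was -0.0020 with another scaling and -0.00019 with DESeq2.

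With a replicate block the genotype comparison under the control virus called 1 gene, and Vldlr averaged -0.44 (adjusted p = 0.186). Deviations of same-numbered mice correlated at -0.168 to 0.102 in 24 pairs, 2 of them over 0.1, so the numbers were not read as a pairing.

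With the cortical covariate Mef2c was at -0.086 (virus, control mice), -0.30 (BACHD mice) and -0.20 (average), Rora at 0.0016 (virus, BACHD mice) and Foxp2 at -0.029 (genotype, control virus). It called 13 genes for genotype under the Foxp2 virus and 2 for the interaction. Without the 3 libraries lowest in cortical markers Mef2c was at -0.010 (control mice), -0.31 (BACHD mice) and -0.16 (average), Foxp2 at -0.24 (genotype, control virus) and Rora at -0.10 (interaction). The Srpx2 difference in control mice was then 0.572 CPM. That fit called 6 genes for the virus in BACHD mice, 61 on average and 1 for genotype under the control virus. The 3 mice left out carried the control virus and the lowest Mef2c of their groups, so Mef2c virus effects could only move downward.

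Alternatives on thalamic markers, and those on CPM differences, were chosen after seeing the data. With the thalamic covariate, genotype under the control virus gave Mef2c -0.11, Vldlr 0.00029, Rora 0.034 and Foxp2 -0.029, and under the Foxp2 virus Met 0.11 and Rora 0.092. Without the 3 libraries highest in thalamic markers, 4 genes were called for the virus in control mice, 71 on average and 4 for genotype under the Foxp2 virus. Mef2c was then at -0.032 (virus, control mice). Genotype under the control virus gave Mef2c -0.36, Vldlr 0.0069, Rora 0.12 and Foxp2 -0.042, and under the Foxp2 virus Met 0.23 and Rora 0.099. The interaction was 0.0996 for Cntnap2, 0.09998 for Mef2c and -0.021 for Rora.

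Leaving out 1 mouse at a time, genes called ranged from 10 to 46 for the virus in control mice, 9 to 26 in BACHD mice, 4 to 8 for genotype under the Foxp2 virus, 1 to 2 under the control virus and 0 to 1 for the interaction, with 0 to 1 members on average. The virus effect in control mice ranged from -0.095 to 0.032 for Cntnap2, -0.018 to 0.55 for Mef2c and -0.80 to 0.20 for Met. In BACHD mice it ranged from -0.17 to 0.0098 for Cntnap2, -0.079 to 0.31 for Mef2c and -0.13 to 0.044 for Rora. Genotype under the control virus ranged from -0.125 to 0.053 for Cntnap2, -0.24 to 0.40 for Mef2c, -0.18 to 0.0063 for Vldlr and -0.14 to 0.14 for Foxp2. Under the Foxp2 virus it ranged from -0.26 to 0.0049 for Mef2c, -0.185 to 0.20 for Vldlr, -0.69 to 0.23 for Met and -0.21 to 0.099 for Rora. The interaction ranged from -0.15 to 0.031 for Cntnap2, -0.48 to 0.16 for Mef2c and -0.12 to 0.26 for Vldlr. In control mice the CPM difference ranged from -1.31 to 0.572 for Srpx2 and from -0.222 to 0.506 for Disc1.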
